A study of Mus musculus with 26 samples.

Results

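The choriocapillaris is the capillary bed of the choroid, which lies against the retinal pigment epithelium (RPE). Described here are 10 genes enriched in its endothelial cells (ECs) on which little is known in this tissue: *Cd300lg*, *Ctla2a*, *Exoc3l2*, *Fam167b*, *Fam174b*, *Gchfr*, *Hilpda*, *Ivns1abp*, *Kctd12b* and *Nmb*. They are 10 of the 16426 genes in the single-cell count tables. They were chosen by their levels in cluster 2, the *Kdr*-high EC cluster, relative to other clusters of the same libraries, so their cluster levels are given as a description without a test.

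The study profiled RPE/choroid of adult mice by single-cell RNA sequencing (scRNAseq) and by bulk RNAseq, 26 samples in all, and asked which signals choroidal ECs send to their neighbors. The 2 scRNAseq libraries came from B6129PF1/J and C57BL/6J mice 3 months of age, 1 library per strain, each from a male and a female eye pooled before digestion. No library is replicated, so differences between the strains have no replicate check and strain cannot be told apart from library. For bulk RNAseq, 3 samples of *Ihh*+/+ tissue and 3 with endothelial deletion (*Ihh* iΔEC/iΔEC) were taken at 6 months of age and 12 weeks after tamoxifen. Both genotypes carried the tamoxifen-inducible Cre driven by the EC promoter of *Cdh5*, and both received tamoxifen. GLI1+ stromal cells were sorted by GFP from pooled *Gli1* GFP/+ mice, expanded in culture and given 100 nM of the Hedgehog agonist SAG or the vehicle DMSO for 24 h, 3 samples per treatment. Sorted ECs from heart, liver, lung and neural retina (3 samples each, mice 1 month of age) enter for the gene *Nmb*. The bulk tables hold the authors' mean FPKM per group (fragments scaled to transcript length and library size), so no spread between samples and no test is given for them.

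Choriocapillaris ECs are fenestrated and supply the RPE and the photoreceptors, whereas larger choroidal vessels have a tighter endothelium. The 10 genes have no pathway in common. Several encode inhibitors or adaptors with a known partner: GCHFR restrains GTP cyclohydrolase 1, the entry enzyme of tetrahydrobiopterin synthesis, HILPDA restrains the lipase PNPLA2 on lipid droplets, and CTLA2A resembles the propeptide of cathepsins and inhibits cathepsin L. NMB is a secreted peptide of the bombesin family that signals through the receptor NMBR, and CD300LG is a surface glycoprotein of the CD300 receptor family found on endothelium.

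The genes are spread over the genome. In GENCODE vM21 on GRCm38, the assembly known as mm10, *Cd300lg* lies at chr11:102041509-102055620, *Ctla2a* at chr13:60934155-60936625, *Exoc3l2* at chr7:19463331-19496762 and *Fam167b* at chr4:129576815-129578549. *Fam174b* lies at chr7:73740302-73776919, *Gchfr* at chr2:119167773-119172390, *Hilpda* at chr6:29272488-29275446 and *Ivns1abp* at chr1:151344477-151364422. *Kctd12b* lies at chrX:153685154-153696391 and *Nmb* at chr7:80902227-80905076. All are protein coding. *Ctla2a* is the member whose reads could be split with other genes: 13.6% of the 98-base stretches in the last 500 bases of its transcripts occur in the overlapping gene model *Gm49391*, and 1.98% occur in *Ctla2b*. The other 9 members shared no such stretch. *Ivns1abp* overlaps the antisense gene *Gm10138* outside its last 500 bases.

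The members share a high level in ECs, so their promoters were searched for shared letters. RefSeq promoter windows on GRCm38.p6, from 250 bases before to 50 after the start of the gene, were on hand for 8 members; *Cd300lg* and *Kctd12b* had none. The 4 windows below are shown because *Hilpda* is named for its induction by hypoxia, *Gchfr* and *Nmb* were the members that differed most between the strains in cluster 2, and *Fam167b* was among the highest in cluster 2. Capitals mark ACGTG or GCGTG on either strand, the core letters of a hypoxia response element.
Hilpda promoter, chr6:29272238-29272537, plus strand: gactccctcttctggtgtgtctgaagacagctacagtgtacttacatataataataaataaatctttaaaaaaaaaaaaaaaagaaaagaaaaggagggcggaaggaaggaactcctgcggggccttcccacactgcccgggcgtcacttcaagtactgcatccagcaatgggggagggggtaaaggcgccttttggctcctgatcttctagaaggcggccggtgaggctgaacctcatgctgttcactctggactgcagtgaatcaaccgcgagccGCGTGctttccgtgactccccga
Gchfr promoter, chr2:119167538-119167837, plus strand: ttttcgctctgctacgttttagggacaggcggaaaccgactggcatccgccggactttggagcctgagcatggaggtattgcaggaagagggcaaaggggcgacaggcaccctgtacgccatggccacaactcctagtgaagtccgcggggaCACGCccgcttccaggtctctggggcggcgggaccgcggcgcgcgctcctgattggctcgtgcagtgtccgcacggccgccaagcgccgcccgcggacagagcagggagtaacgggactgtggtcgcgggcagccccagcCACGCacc
Nmb promoter, chr7:80905013-80905312, minus strand: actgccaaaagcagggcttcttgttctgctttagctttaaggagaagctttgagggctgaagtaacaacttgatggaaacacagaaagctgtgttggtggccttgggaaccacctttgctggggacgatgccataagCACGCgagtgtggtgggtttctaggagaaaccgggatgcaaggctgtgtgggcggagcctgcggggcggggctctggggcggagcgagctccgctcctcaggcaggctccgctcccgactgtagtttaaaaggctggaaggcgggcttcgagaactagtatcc
Fam167b promoter, chr4:129578531-129578830, minus strand: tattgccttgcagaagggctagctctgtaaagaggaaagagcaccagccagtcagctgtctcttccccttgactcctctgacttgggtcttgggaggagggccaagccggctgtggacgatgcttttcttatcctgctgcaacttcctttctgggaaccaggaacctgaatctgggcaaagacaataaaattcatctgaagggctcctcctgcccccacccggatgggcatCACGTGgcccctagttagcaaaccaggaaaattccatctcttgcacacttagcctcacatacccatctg
The *Hilpda* window holds 1 match, downstream of the start of the gene. The *Gchfr* window holds 2, the *Nmb* window 1, and the *Fam167b* window has a palindromic run that counts on both strands as 2. In all, 7 of the 8 windows hold ACGTG or GCGTG, as do 43.8% of the 27025 windows of all genes. TTCCGG on either strand, the core letters of ETS factor sites, is in 3 of the 8 windows (*Exoc3l2*, *Fam174b* and *Ivns1abp*) and in 15.2% of all windows. The GC content was 50.7% in *Hilpda*, 67% in *Gchfr*, 57% in *Nmb* and 52.7% in *Fam167b*, against a median of 52.67% over all windows. In the windows not shown it was 70.3% in *Ivns1abp*, 63% in *Exoc3l2*, 60.3% in *Fam174b* and 49% in *Ctla2a*. The shares of all windows were not matched for GC content, and its part in the motif counts was not tested.

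The deposited counts cover 3637 cells with 17168578 unique molecular identifiers (UMIs) in B6129PF1/J and 3928 cells with 15230413 UMIs in C57BL/6J. The cells are fewer than the study gives as sequenced. The libraries share 22 cell barcodes, and 35 and 33 cells held UMIs of both *Xist* and *Ddx3y*, the sign of a male-female doublet. The deposited annotation has 13 clusters: RPE (1), ECs (2 to 4), stromal cells (5 to 8), smooth muscle (9), melanocytes (10), hematopoietic cells (11) and Schwann cells (12 and 13). All 25 markers listed for these 7 cell types were highest in a cluster of their own type in both libraries. In cluster 2, *Plvap*, the protein of fenestral diaphragms, *Kdr*, the main VEGF receptor, and *Ihh* were all at their highest, and the 3 melanocyte markers summed to 0.110 and 0.126 UMIs per 10,000. Cluster 2 has 370 and 403 cells (B6129PF1/J first here and below), cluster 3 has 430 and 549, and cluster 4, the *Kdr*-low ECs, has 63 and 72. Both large-vessel markers were low in cluster 2, but neither was highest in cluster 4. *Mgp* was 3.04 and 4.89 UMIs per 10,000 in cluster 2, 97.6 and 112.2 in cluster 4 and 155.7 and 133.5 in stromal cluster 6, and *Vwf* was 0.0735 and 0.115 in cluster 2, 4.16 and 2.98 in cluster 3 and 4.03 and 2.66 in cluster 4.

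Levels below are summed UMIs per 10,000 UMIs of a cluster, with exact Poisson 95% intervals that cover counting error only. Of the 10 members, 9 were highest in cluster 2 in B6129PF1/J and 9 in C57BL/6J. Among all genes with at least 1 UMI per 10,000 in cluster 2, cluster 2 was the highest cluster for 22% of 1716 genes in B6129PF1/J and 21.4% of 1760 genes in C57BL/6J. The exceptions were *Ivns1abp* in B6129PF1/J, highest in Schwann cluster 13, and *Ctla2a* in C57BL/6J, highest in cluster 3. Cluster 2 was at least 5 times as high as cluster 4 for all 10 members in B6129PF1/J and for 9 in C57BL/6J, against 4.95% and 4.32% of all genes at that level. The member outside was *Kctd12b*, 4.84-fold higher in C57BL/6J (95% interval 2.90 to 8.74). These counts restate the choice of the genes.

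**Figure D1:**
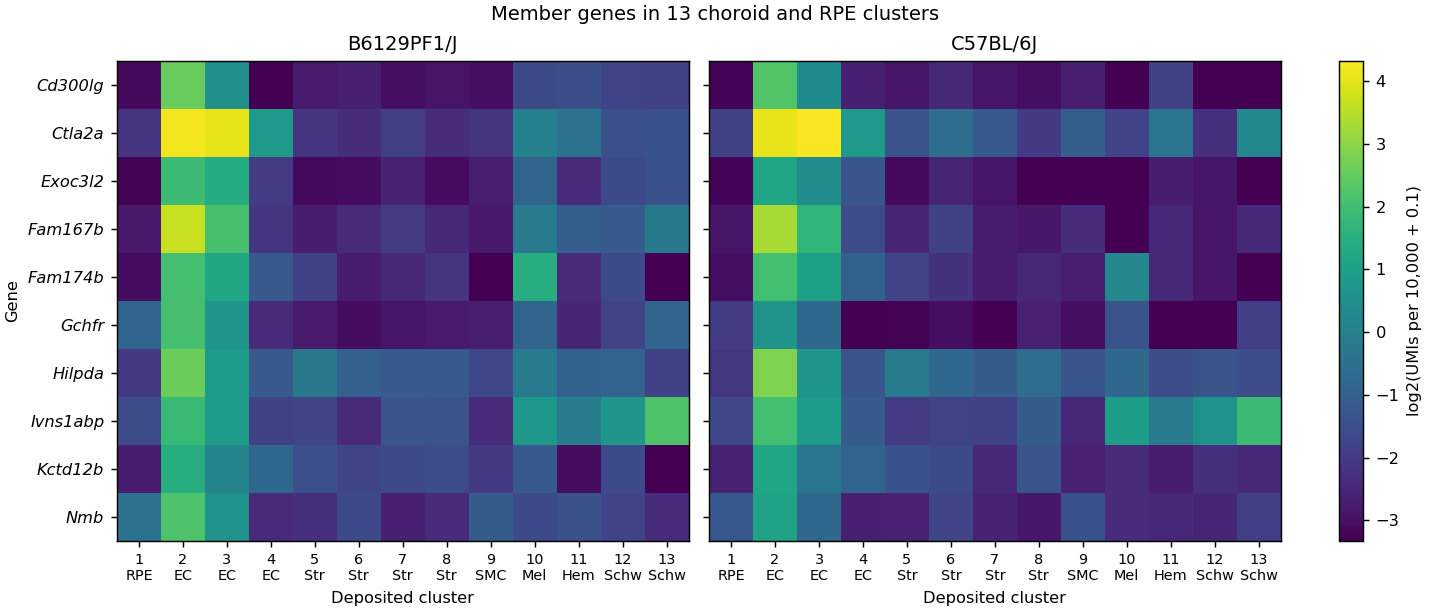
Level of the 10 genes in the 13 deposited clusters of each library, as log2 of UMIs per 10,000 plus 0.1 (color). Rows are genes and columns are clusters with their cell type (EC, endothelial; Str, stromal; SMC, smooth muscle; Mel, melanocytes; Hem, hematopoietic; Schw, Schwann). Clusters 2 and 3 stand out in both libraries, with *Ivns1abp* also high in cluster 13 and *Fam174b* in cluster 10.

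Among the surface and secreted proteins, *Cd300lg* had 5.68 UMIs per 10,000 (5.35 to 6.03) in cluster 2 of B6129PF1/J and 4.64 (4.34 to 4.97) in C57BL/6J. It was at 1.33 and 1.20 in cluster 3, and cluster 4 held 0 UMIs in B6129PF1/J and 2 in C57BL/6J. In B6129PF1/J the ratio of cluster 2 to cluster 4 had an exact 95% lower bound of 50.3-fold, and cluster 2 was 61.96-fold over a floor of 3 counts. Of all *Cd300lg* UMIs, 95.7% and 95.8% lay in the 3 EC clusters. A UMI was seen in 88.9% and 76.2% of cluster 2 cells, and in 0.983% and 0.267% of RPE cells. *Exoc3l2* and *Fam174b* were likewise detected in under 1% of RPE cells in both libraries.

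*Nmb* had 4.41 UMIs per 10,000 (4.12 to 4.72) in cluster 2 of B6129PF1/J and 2.03 (1.83 to 2.25) in C57BL/6J. It was 3.16-fold and 4.12-fold lower in cluster 3, and cluster 4 held 3 and 2 UMIs. Outside the endothelium, RPE came next, with 0.643 (0.556 to 0.741) and 0.326 (0.247 to 0.422), and 28% and 12.8% of RPE cells had a UMI. Smooth muscle followed, with 0.3775 (0.2925 to 0.4794) and 0.279 (0.207 to 0.368). In C57BL/6J its interval overlapped that of RPE. Per 100 *Plvap* UMIs, *Nmb* had 5.97 and 2.61 UMIs in cluster 2, 238 and 80.3 in RPE and 73.6 and 37.6 in smooth muscle. The *Nmb* UMIs of RPE were spread over cells, with at most 7.02% in any cell of C57BL/6J and 4.66% in B6129PF1/J.

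Enzyme inhibitors differed in how far they reached beyond cluster 2. *Gchfr* had 4.13 UMIs per 10,000 (3.84 to 4.42) in cluster 2 of B6129PF1/J and 1.46 (1.29 to 1.64) in C57BL/6J. In cluster 3 it was 2.80-fold and 3.00-fold lower, and cluster 4 held 3 UMIs and 0. RPE had 0.454 (0.381 to 0.536) and 0.154 (0.102 to 0.225). Per 100 *Plvap* UMIs this was 168 and 38 in RPE, against 5.59 and 1.87 in cluster 2. Per *Plvap* UMI, 5 other members were also higher in RPE than in cluster 2 in both libraries. *Ivns1abp* had 87.7 and 52.1 per 100 *Plvap* UMIs in RPE, *Hilpda* 54.3 and 33.8, *Ctla2a* 46.9 and 43.7, *Kctd12b* 18.5 and 16.9 and *Fam174b* 7.41 and 5.63, the last from 6 and 4 UMIs. *Cd300lg*, *Exoc3l2* and *Fam167b* were lower in RPE than in cluster 2 on this scale. For *Ctla2a* and *Fam174b*, cluster 3 lay above RPE on this scale in both libraries. It held 3980 and 5228 *Ctla2a* UMIs and 544 and 525 *Fam174b* UMIs, beside 6953 and 7551 *Plvap* UMIs. The part of free RNA in the RPE counts was not tested.

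*Ctla2a* was the highest member, with 18.0 UMIs per 10,000 (17.4 to 18.6) in cluster 2 of B6129PF1/J and 16.8 (16.2 to 17.4) in C57BL/6J. Its cluster 3 level was 16.5 (15.99 to 17.02) in B6129PF1/J, slightly under that of cluster 2, and 19.4 (18.9 to 19.9) in C57BL/6J, slightly over it. Cluster 4 had 1.62 and 1.63, so the larger step of *Ctla2a* lay between clusters 3 and 4. It was detected in 95.7% and 93.1% of cluster 2 cells and in 93.0% and 91.4% of cluster 3 cells. In RPE 8.11% and 6.15% of cells had a UMI.

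*Hilpda* had 6.00 UMIs per 10,000 (5.66 to 6.36) in cluster 2 of B6129PF1/J and 7.11 (6.73 to 7.50) in C57BL/6J. It was 3.40-fold and 4.6-fold lower in cluster 3 and 17.9-fold and 23.5-fold lower in cluster 4. It also had a low level in the stromal clusters: cluster 5 had 0.727 (0.637 to 0.827) and 0.762 (0.663 to 0.872), with a UMI in 19.7% and 20.9% of its cells. Per 100 *Plvap* UMIs, cluster 5 held 201 and 115 *Hilpda* UMIs and cluster 2 held 8.13 and 9.12. Clusters 2 to 4 held 76.2% and 78.8% of its UMIs.

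The remaining members have less defined roles. *Fam167b*, whose function is little known, had 12.7 UMIs per 10,000 (12.2 to 13.2) in cluster 2 of B6129PF1/J and 9.87 (9.42 to 10.3) in C57BL/6J. It was detected in 98.4% and 92.8% of cluster 2 cells, the widest of the members in B6129PF1/J, and in 3.19% and 1.60% of RPE cells. It was 3.07-fold and 3.12-fold lower in cluster 3. Cluster 4 held 4 and 8 UMIs, and the ratio of cluster 2 to cluster 4 was 104-fold (40.6 to 382) and 40.8-fold (20.7 to 94.7).

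*Exoc3l2* encodes a relative of the exocyst subunit EXOC3. It had 3.72 UMIs per 10,000 (3.45 to 4.0) in cluster 2 of B6129PF1/J and 2.19 (1.98 to 2.42) in C57BL/6J. Its step down to cluster 3 was the smallest after that of *Ctla2a*, 1.48-fold (1.33 to 1.66) and 1.78-fold (1.53 to 2.06), with *Fam174b* next at 1.78-fold and 2.02-fold, while its step to cluster 4 was 24.3-fold and 7.25-fold. Of its UMIs, 96.7% lay in the EC clusters in both libraries.

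*Fam174b*, a predicted membrane protein, had 4.02 UMIs per 10,000 (3.74 to 4.32) in cluster 2 of B6129PF1/J and 3.93 (3.65 to 4.23) in C57BL/6J. Outside the endothelium, melanocytes had the highest level. It was 2.59 (1.64 to 3.89) from 23 UMIs in 13 of 16 cells in B6129PF1/J. In C57BL/6J it was 1.06 (0.529 to 1.90) from 11 UMIs in 7 of 26 cells. Stromal cluster 5 had a lower level, 0.183 (0.139 to 0.236) and 0.195 (0.1465 to 0.2544). It held more UMIs than melanocytes, 58 and 54, spread over 56 and 52 cells. Per 100 *Plvap* UMIs, melanocytes held 88.5 and 138 *Fam174b* UMIs, stromal cluster 5 held 50.4 and 29.5, and cluster 2 held 5.45 and 5.04. The other members' UMIs in the 16 melanocytes of B6129PF1/J came in part from single cells: the 8 *Ctla2a*, 7 *Fam167b*, 4 *Exoc3l2* and 4 *Gchfr* UMIs each lay in a single cell.

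*Ivns1abp* encodes a BTB and kelch protein first found as a partner of the influenza protein NS1. It had 3.46 UMIs per 10,000 (3.20 to 3.73) in cluster 2 of B6129PF1/J and 3.92 (3.64 to 4.22) in C57BL/6J. Schwann cluster 13 had 4.56 (3.37 to 6.03) from 49 UMIs in 22 of 30 cells and 3.67 (2.67 to 4.93) from 44 UMIs in 24 of 46 cells. The ratio of cluster 2 to cluster 13 was 0.759 (0.567 to 1.04) and 1.07 (0.787 to 1.48), so these neighbors in the order did not differ beyond counting error. Next in B6129PF1/J came cluster 3 at 1.766, melanocytes at 1.577 and Schwann cluster 12 at 1.503. In C57BL/6J melanocytes came next at 1.831, then cluster 3 at 1.729 and cluster 12 at 1.394.

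*Kctd12b* belongs to the KCTD family, whose member KCTD12 is an auxiliary subunit of GABA-B receptors. It was the lowest member in cluster 2 of B6129PF1/J, with 2.61 UMIs per 10,000 (2.38 to 2.85), and had 2.20 (1.99 to 2.42) in C57BL/6J. It was 2.68-fold and 3.16-fold lower in cluster 3. Cluster 4 kept 0.489 (0.279 to 0.794) and 0.453 (0.254 to 0.748), and in C57BL/6J the ratio of cluster 3 to cluster 4 was 1.53 (0.905 to 2.79), within counting error of no difference. Clusters 2 to 4 held 78.0% and 77.8% of its UMIs. Stromal cluster 5 had 0.261 (0.208 to 0.324) and 0.282 (0.223 to 0.3515), from 83 and 78 UMIs. Per 100 *Plvap* UMIs, cluster 5 held 72.2 and 42.6 *Kctd12b* UMIs and cluster 2 held 3.53 and 2.82.

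**Figure D2:**
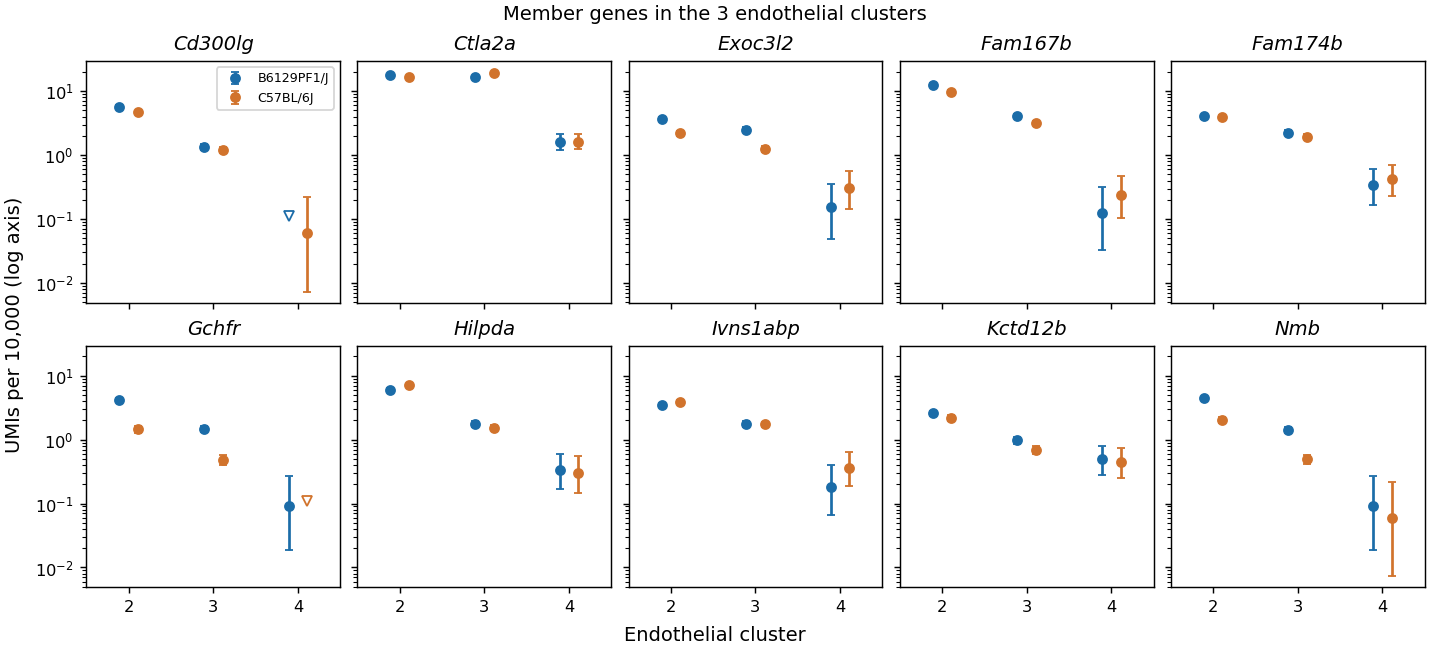
Level of each gene in EC clusters 2, 3 and 4 in UMIs per 10,000 (log axis), with exact Poisson 95% intervals. Blue is B6129PF1/J, orange is C57BL/6J, and an open triangle marks the upper bound where a cluster held 0 UMIs. Most genes step down from 2 to 3 to 4, whereas *Ctla2a* differs little between 2 and 3 (1.09-fold and 0.866-fold, cluster 2 over 3).

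Cluster 3 lay between clusters 2 and 4 for all 10 members in B6129PF1/J and for 9 in C57BL/6J, so its cells were examined singly. Every cell was thinned to 1700 UMIs, under the smallest cell of either library, and the members with a UMI were counted per cell; none of the 3637 and 3928 cells was left out. The median cluster 2 cell had 5 members in both libraries, the median cluster 3 cell 2 in both, and the median cluster 4 cell 0 in both. At least 5 members were seen in 74.3% and 55.6% of cluster 2 cells, in 13.02% and 6.38% of cluster 3 cells, and in 0 of the 63 and 72 cells of cluster 4. In cluster 3 the counts had a single peak: 25.6% and 33.9% of cells had 1 member, 25.8% and 29.1% had 2, 17.2% and 16.2% had 3, and 15.4% and 8.93% had 4. No separate peak at 5 members or more was seen among cluster 3 cells. The cells were assigned to clusters from these same data, and the members were chosen by cluster 2. The counts therefore cannot show whether a separate group exists. *Ctla2a* alone had a UMI in 82.8% and 83.6% of the thinned cluster 3 cells. In RPE, 79.9% and 83.2% of cells had none of the members. Unthinned, the median of cluster 2 was 8 and 7 members.

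**Figure D3:**
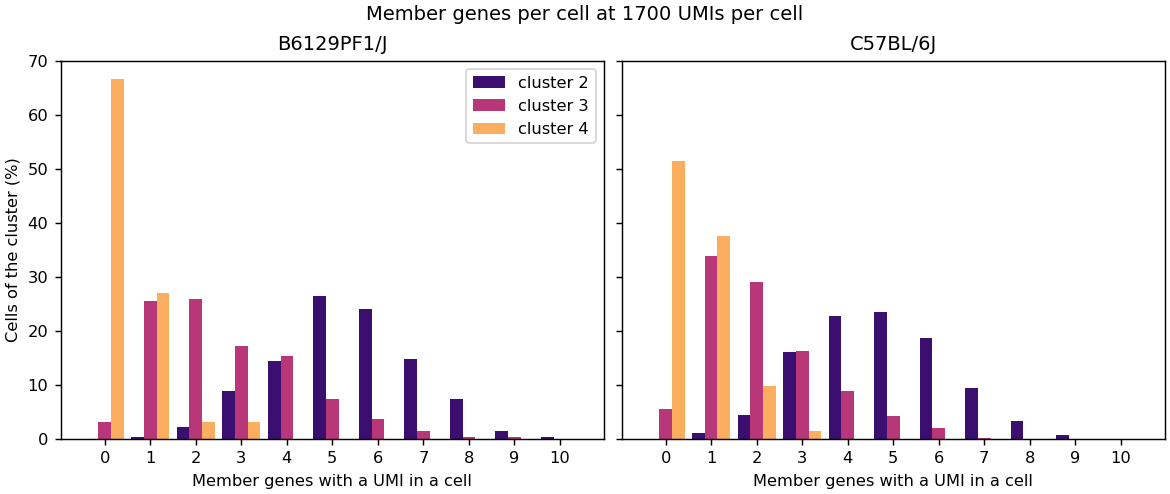
Share of cells (%) of EC clusters 2, 3 and 4 by the number of the 10 genes with a UMI, after thinning every cell to 1700 UMIs. Cluster 2 peaks at 5 genes in both libraries, cluster 3 peaks at 1 to 2 and tails off without a separate peak, and cluster 4 lies mostly at 0.

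Within cluster 2 the members hardly varied together from cell to cell. Over 370 cells of B6129PF1/J, Pearson's r of the 45 pairs ran from -0.10 to 0.16 with a median of 0.04. Over 403 cells of C57BL/6J it ran from -0.10 to 0.19 with a median of 0.02. The highest pair was *Fam167b* and *Gchfr* in B6129PF1/J and *Ctla2a* and *Nmb* in C57BL/6J. These counts are sparse and the cells of a library share its depth, so the values are a description.

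In cluster 2 the strains differed most in *Gchfr*, *Nmb* and *Exoc3l2*, all lower in the C57BL/6J library. The cluster 2 level of *Gchfr* went from 4.13 in B6129PF1/J to 1.46 in C57BL/6J, 2.83-fold lower, with a ratio of 0.353 (exact conditional 95% interval 0.306 to 0.406). *Nmb* went from 4.41 to 2.03, a ratio of 0.461 (0.407 to 0.521). *Exoc3l2* went from 3.72 to 2.19, a ratio of 0.589 (0.520 to 0.667). These 3 members were at least 1.5 times lower in C57BL/6J, as were 2.06% of the 1842 genes with at least 1 UMI per 10,000 in cluster 2 of either library. No member was at least 1.5 times higher, as were 2.82% of those genes. The median log2 ratio was -0.27 over the members and 0.03 over all these genes. The members were chosen on levels in these same libraries, so these counts are a description.

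Lower values were also seen in cluster 3 and, for *Gchfr* and *Nmb*, in RPE. *Gchfr* had a ratio of 0.330 (0.268 to 0.404) in cluster 3 and of 0.341 (0.217 to 0.518) in RPE, from 136 UMIs in B6129PF1/J and 27 in C57BL/6J. *Nmb* had 0.353 (0.287 to 0.433) in cluster 3 and 0.507 (0.370 to 0.684) in RPE. *Exoc3l2* had 0.491 (0.429 to 0.563) in cluster 3 and 1 UMI per library in RPE. Some endothelial reference genes were also lower in cluster 3: *Ihh* (0.625, 0.509 to 0.766), *Kdr* (0.708, 0.664 to 0.755) and *Cdh5* (0.888, 0.817 to 0.966). In contrast, *Plvap* had 0.972 (0.941 to 1.005), *Pecam1* 1.005 and *Cldn5* 1.34. The part of such a shift in the cluster 3 ratios was not tested. Stromal cluster 6 gave other ratios: *Exoc3l2* had 3.76 (1.18 to 15.7) from 4 and 14 UMIs. There *Gchfr* had 1.075 (0.200 to 5.77) from 4 and 4 UMIs, and *Nmb* 0.907 (0.573 to 1.43). In stromal cluster 5, *Gchfr* had 0.0765 (0.00182 to 0.497) from 15 and 1 UMIs and *Nmb* 0.573 (0.300 to 1.055). *Exoc3l2* had 4 and 4 UMIs in cluster 5. In smooth muscle, *Gchfr* had 0.396 (0.0907 to 1.37), *Nmb* 0.739 (0.502 to 1.08) and *Exoc3l2* 10 and 0 UMIs. Shares of cells moved likewise: at 1700 UMIs per cell, 49.5% of B6129PF1/J cells in cluster 2 and 21.1% in C57BL/6J had a *Gchfr* UMI, against 81.9% and 41.9% without thinning. Whether strain, animals or library preparation moved these counts was not tested.

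In cluster 2 the other 7 members stayed within 1.5 times. *Fam167b* had a ratio of 0.776 (0.730 to 0.825) in cluster 2, with 0.764 (0.697 to 0.838) in cluster 3. *Cd300lg* had 0.818 (0.747 to 0.895) and *Kctd12b* 0.842 (0.736 to 0.962). *Fam174b* had 0.978 (0.882 to 1.08) in cluster 2, so a difference there was not detectable at this depth. In cluster 3 *Fam174b* had 0.864 (0.765 to 0.976), *Kctd12b* 0.7125 (0.5848 to 0.8671) and *Cd300lg* 0.901 (0.770 to 1.05). *Ivns1abp* had 1.13 (1.02 to 1.26) and *Hilpda* 1.18 (1.09 to 1.28) in cluster 2. Their cluster 3 ratios were 0.9795 (0.857 to 1.12) and 0.874 (0.762 to 1.00). *Ctla2a* had 0.934 (0.890 to 0.981) in cluster 2 and 1.18 (1.13 to 1.23) in cluster 3. The junction gene *Cldn5* also had a ratio above 1 in cluster 3, 1.34 (1.29 to 1.39), and below it in cluster 2, 0.911 (0.873 to 0.952); its part in the *Ctla2a* values was not tested. Among non-endothelial clusters, *Ctla2a* was higher in C57BL/6J in stromal clusters 5 (ratio 2.47, 1.67 to 3.74) and 6 (5.80, 3.58 to 9.88) and in smooth muscle (3.24, 1.99 to 5.49). In cluster 6 *Fam167b* had 2.09 (1.15 to 3.92), *Fam174b* 2.36 (1.07 to 5.59) and *Ivns1abp* 2.04 (1.14 to 3.76), while *Kctd12b* had 0.419 (0.187 to 0.878) in smooth muscle. The endothelial genes *Plvap* (2.85, 2.28 to 3.57), *Cldn5* (2.70, 1.86 to 3.98) and *Cdh5* (14.5, 3.65 to 126) were also higher in cluster 6 of C57BL/6J, and their part in these values was not tested.

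**Figure D4:**
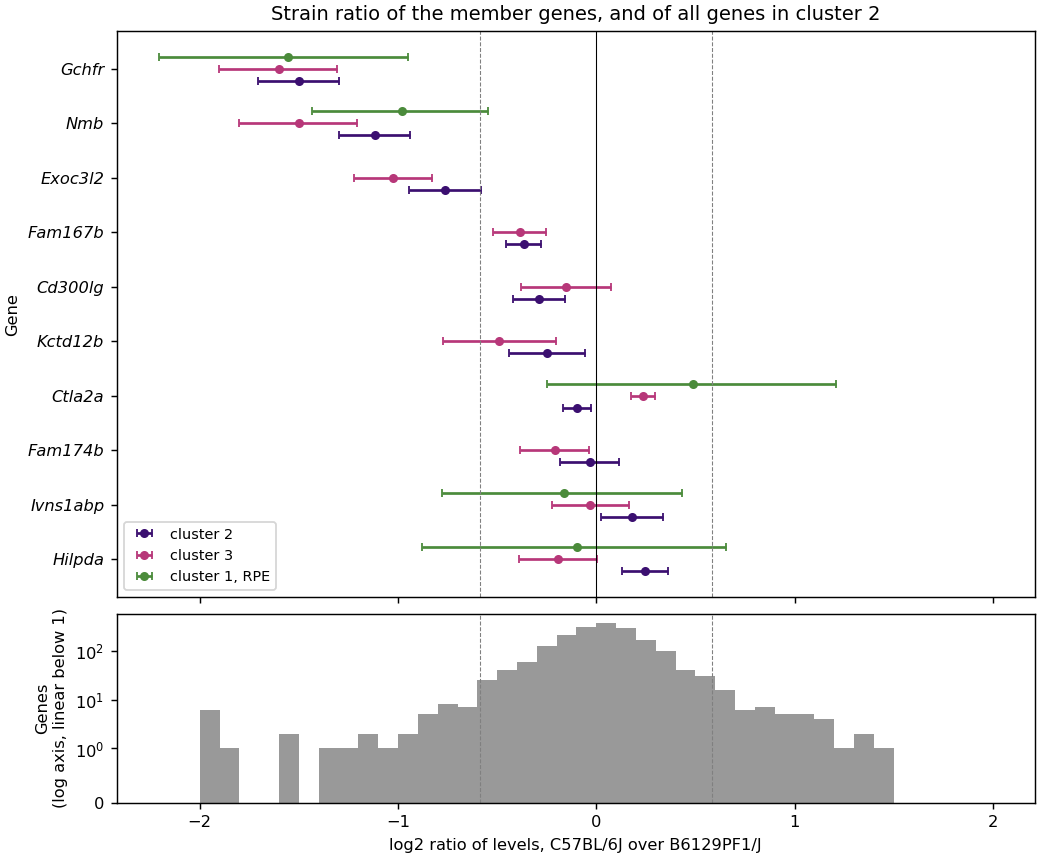
Upper panel: log2 ratio of levels in C57BL/6J over B6129PF1/J for each gene in clusters 2, 3 and 1 (RPE), with exact conditional 95% intervals, where both libraries together held at least 60 UMIs. Lower panel: number of genes by the same ratio in cluster 2 among 1842 genes (log axis, linear below 1; values beyond 2 or -2 are in the end bars); dashed lines mark 1.5 times. *Gchfr*, *Nmb* and *Exoc3l2* lie left of the dashed line in the clusters plotted, except that some intervals reach it.

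Known partners of the members were compared between clusters 2 and 4, with a gene counted as higher or lower when it differed by at least 1.5 times in the same direction in both libraries and had at least 20 UMIs in the pair of clusters in each. By this rule 13.5% of 7745 genes were higher in cluster 2 and 8.51% were lower. In the tetrahydrobiopterin list, 0 of 5 genes compared were higher and 1 was lower: *Nos3*, the endothelial nitric oxide synthase that needs this cofactor, had 0.961 and 0.925 UMIs per 10,000 in cluster 2 and 2.29 and 1.90 in cluster 4. *Gch1*, the enzyme GCHFR acts on, had 0.824 and 0.887 in cluster 2 and 1.28 and 1.27 in cluster 4. The median log2 ratio of this list was -0.45 and -0.21, against 0.07 and 0.10 over all genes compared.

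For lipid droplets, 0 of 5 genes compared were higher and 0 were lower (median log2 ratio -0.22 and -0.07). *Pnpla2*, the lipase HILPDA acts on, had 1.06 and 0.904 UMIs per 10,000 in cluster 2 and 1.41 and 1.30 in cluster 4. *G0s2*, another inhibitor of this lipase, had too few EC UMIs for the rule: 0.0420 and 0.0767 in cluster 2, but 3.56 and 4.20 in stromal cluster 6. Of the hypoxia list, 1 of 13 genes compared was higher (*Ankrd37*, 0.147 and 0.186 against 0.0611 and 0.0907) and 3 were lower. The lower ones were *Slc2a1*, the glucose transporter, with 0.646 and 1.46 in cluster 2 and 15.8 and 13.4 in cluster 4, *Bnip3*, and *Epas1*, the HIF subunit of endothelium, with 4.82 and 4.73 against 8.34 and 8.79. The median of the hypoxia list was -0.14 and -0.31.

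In the exocyst list, which includes relatives of EXOC3, 3 of 11 genes compared were higher in cluster 2 and 1 was lower (median log2 ratio 0.80 and 0.31). The 3 were *Exoc3l* (4.05-fold and 7.43-fold), *Exoc3l4* (22.2-fold and 42.2-fold, from 2 UMIs and 1 in cluster 4) and *Tnfaip2* (3.31-fold and 5.04-fold), all relatives of EXOC3. *Exoc3* itself had 0.499 and 0.564 in cluster 2 and 0.458 and 0.604 in cluster 4. *Exoc6* was the lower gene, with 0.0945 and 0.131 against 0.367 and 0.453.

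In the cathepsin list, 2 of 3 genes were higher in cluster 2 (median log2 ratio 0.73 and 0.63). *Ctsl*, the protease that CTLA2A inhibits, had 12.1 and 12.4 UMIs per 10,000 in cluster 2, 4.76 and 6.40 in cluster 3 and 2.90 and 3.32 in cluster 4, and 18.8 and 17.3 in stromal cluster 5. *Ctla2b*, the near copy of *Ctla2a*, had 0.404 and 0.422 in cluster 2. Of the KCTD and GABA-B list, *Kctd12* was higher, with 1.60 and 1.31 in cluster 2 and 0.978 and 0.574 in cluster 4, *Gabbr1* was neither, and 3 genes had no row (median log2 ratio 0.23 and 0.31 over 2 genes). All 5 other CD300 genes fell under 20 UMIs in these clusters, and *Cd300a* had 94 and 132 UMIs in hematopoietic cluster 11. *Nmbr* and *Grpr* had no row and *Grp* had 7 and 6 UMIs in a whole library. *Fam174a* was neither higher nor lower, with 1.37 and 1.39 in cluster 2, and *Fam167a* had no row. *Cul3* and *Rbx1*, parts of the ubiquitin ligase that BTB proteins can join, were neither (median log2 ratio -0.02 and 0.07).

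Likeness of profiles was measured as Pearson's r of log2(UMIs per 10,000 + 0.1) over 26 points, the 13 clusters in both libraries. These points share libraries and depth, so no p-value is given. The members were chosen by their cluster 2 levels in these libraries. Likeness between them and to genes high in cluster 2 follows in part from that choice. Between pairs of members r ran from 0.29 (*Ivns1abp* and *Kctd12b*) to 0.97 (*Exoc3l2* and *Fam167b*), with a median of 0.79. Of 9654 other genes with at least 100 UMIs in each library, the 5 most like the median profile of the members were *Plvap* (0.96), *Car8* (0.95), *Kdr* (0.94), *Ramp3* (0.94) and *Ripply3* (0.93). *Ramp3*, a subunit of the adrenomedullin receptor, had 12.6 and 8.98 UMIs per 10,000 in cluster 2 and 1.62 and 0.967 in cluster 4.

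Taken singly, *Plvap* was the gene most like *Cd300lg* (0.94), *Exoc3l2* (0.97) and *Fam167b* (0.97), and *Ramp3* the gene most like *Ctla2a* (0.95). *Hilpda* was most like *Exoc3l4* (0.92), *Nmb* like *Rgs9* (0.91), *Fam174b* like *Cd38* (0.91), *Kctd12b* like *Cxx1a* (0.90) and *Gchfr* like *Meis1* (0.87). *Ivns1abp* was most like *Gm10138* (0.89), the antisense gene that overlaps it, which had 0.231 and 0.164 in cluster 2.

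Bulk RPE/choroid was compared to see whether the members' levels differed without endothelial *Ihh*. *Ihh* itself had a mean of 1.53 FPKM in *Ihh*+/+ and 0.454 in *Ihh* iΔEC/iΔEC tissue, 2.94-fold lower on the scale of FPKM + 0.1 used for ratios here. Of the 9 members with a row (*Exoc3l2* has none), 1 was at least 1.5 times lower and 0 were at least 1.5 times higher, against 3.32% and 3.57% of 17623 genes. The median log2 ratio was -0.01 over the members and -0.03 over all genes. In bulk tissue, fewer cells of a type and less RNA per cell cannot be told apart.

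The lower member was *Fam174b*, with 20.2 FPKM in *Ihh*+/+ and 11.8 in *Ihh* iΔEC/iΔEC tissue (log2 ratio -0.77). In the scRNAseq data it had 23 and 11 UMIs in melanocytes and 58 and 54 in stromal cluster 5. *Ivns1abp* also has a level in melanocytes. All 3 melanocyte markers were lower: *Mlana*, *Pmel* and *Dct* summed to 1613 FPKM in *Ihh*+/+ and 1020 in *Ihh* iΔEC/iΔEC tissue. None of them was at 0. The part of melanocytes in the *Fam174b* value was not tested. The 4 stromal markers also were lower, at 221.9 and 136.4 FPKM in sum, and the part of stromal cells was not tested either.

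*Hilpda* was the highest of the members in the other direction, with 5.46 FPKM in *Ihh*+/+ and 8.13 in *Ihh* iΔEC/iΔEC tissue (log2 ratio 0.57), just under 1.5 times. Of the 14 hypoxia genes with a row, 0 were at least 1.5 times higher and 0 lower (median log2 ratio 0.10): *Slc2a1* had 203 and 296 FPKM (0.54), *Adm* 7.00 and 5.19 (-0.42) and *Ankrd37* 0.258 and 0.170 (-0.41). The 3 RPE markers summed to 3941 and 4897 FPKM. In the scRNAseq data, however, RPE had the lowest *Hilpda* level of any cluster in both libraries. It was 0.147 UMIs per 10,000 in B6129PF1/J and 0.137 in C57BL/6J, against 6.00 and 7.11 in cluster 2. The part of RPE in the bulk *Hilpda* value was not tested. *Gchfr* had 9.48 and 7.23 FPKM (-0.39) and *Ivns1abp* 20.9 and 17.1 (-0.29). *Cd300lg*, *Ctla2a*, *Fam167b*, *Kctd12b* and *Nmb* lay between -0.02 and 0.15: *Cd300lg* had 4.64 and 5.15 FPKM, *Ctla2a* 8.16 and 8.04, *Fam167b* 6.81 and 6.75, *Kctd12b* 3.24 and 3.46, and *Nmb* 7.87 and 7.98. The 5 endothelial markers summed to 85.0 FPKM in *Ihh*+/+ and 72.7 in *Ihh* iΔEC/iΔEC tissue, all 5 lower by less than 1.5 times. Among the partner lists, *Exoc3l4* was the exocyst gene at least 1.5 times lower (1.48 and 0.947 FPKM), and of the other CD300 genes *Cd300e* was lower (0.417 and 0.159) and *Cd300lf* higher (0.696 and 1.39).

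In cultured GLI1+ cells, a perivascular stromal type, the most EC-restricted members were near 0. *Cd300lg* had 0.00500 FPKM with DMSO and 0.00467 with SAG, *Ctla2a* 0.0560 and 0.0600, and *Fam167b* was listed at 0 with DMSO and at 0.0110 with SAG. The 5 endothelial markers summed to 0.438 and 0.467 FPKM and the 4 stromal markers to 3152 and 2773. In contrast, *Ivns1abp* had 8.82 FPKM with DMSO and 12.1 with SAG (log2 ratio 0.45), *Hilpda* 4.53 and 5.02 (0.14), *Gchfr* 2.13 and 1.91 (-0.15), *Kctd12b* 1.53 and 1.55 (0.02), *Fam174b* 1.20 and 1.72 (0.49) and *Nmb* 0.316 and 0.346 (0.10). No member was at least 1.5 times lower or higher with SAG, against 2.59% and 1.91% of 17623 genes. The median log2 ratio was 0.10 over the members and 0.03 over all genes. Partners past 1.5 times were *Kctd12* (1.13 FPKM with DMSO and 2.96 with SAG), *Exoc2* (7.43 and 11.99), *Tnfaip2* (7.77 and 5.09) and *Grpr* (0.0977 and 0.0303). Read depth is not given by these tables, so the precision of the values near 0 is unknown.

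**Figure D5:**
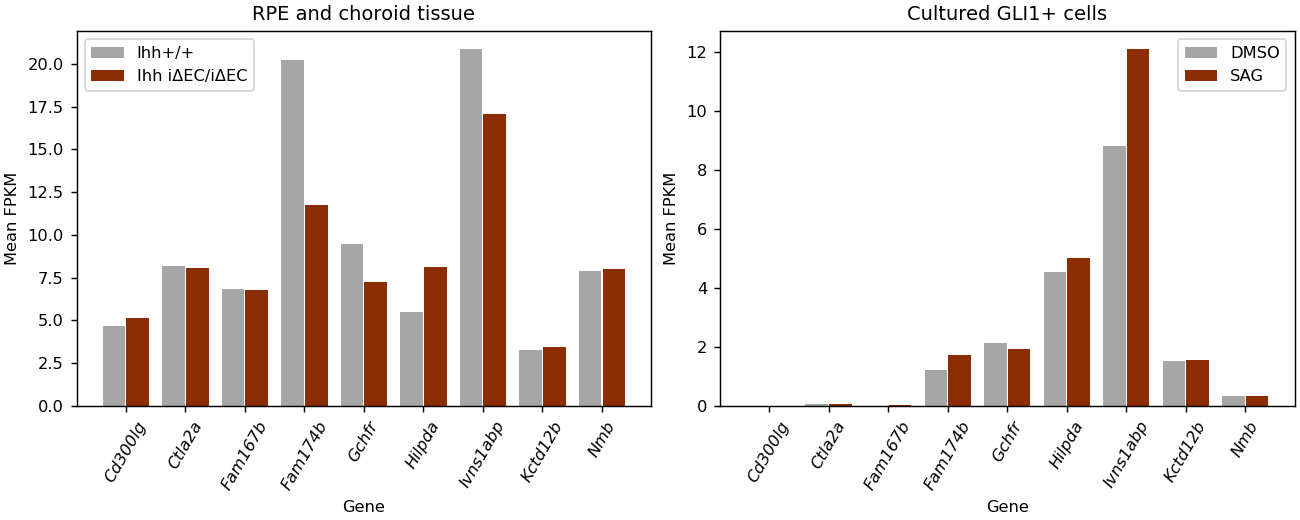
The authors' mean FPKM of the 9 genes with a row, in tissue of *Ihh*+/+ mice and of *Ihh* iΔEC/iΔEC mice (left) and in cultured GLI1+ cells with DMSO or SAG (right), each mean over 3 samples and without error bars because single samples are not in the tables. *Fam174b* has 20.2 and 11.8 FPKM in the left panel, and *Cd300lg*, *Ctla2a* and *Fam167b* lie near 0 in the right panel.

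Only *Nmb* among the members had a row in the table of 99 genes that the authors selected as enriched in choroidal ECs over ECs of other organs. Its mean was 50.5 FPKM for choroidal ECs, 4.13 for heart ECs, 2.00 for those of the neural retina, 1.76 for lung and 1.28 for liver. Choroid was 12.2-fold higher than heart, the next in order, and 39.4-fold higher than liver, the lowest. No choroidal EC sample is among the 26 described here, so the choroidal value is the authors' and these folds set it against samples of the series. The table was selected on this difference, and it holds means alone, so the order among the lower 4 cannot be set against a spread. The other 9 members have no row in this selection.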

How the data were processed

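Per the methods, the authors used Cell Ranger on mm10 and deposited UMI counts per gene and cell, without low-quality cells and rarely detected genes. Cluster numbers are theirs. The average levels per cluster, on a natural log scale, were also deposited by the authors. For bulk RNAseq the authors aligned reads to mm10 with STAR, obtained FPKM with Cufflinks and deposited the mean of each group; their fold changes and p-values of comparisons were not used.

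Counts were summed per cluster and library and divided by the total, as UMIs per 10,000. Intervals are exact at 95% (Poisson for levels, Clopper-Pearson for shares, conditional binomial for ratios), and a count of 0 was set to a floor of 3 counts per library. Members and gene lists were chosen with earlier results of these data known. Named were the 10 members, their listed partners, 6 endothelial reference genes and the genes of highest likeness. Bulk ratios used a pseudocount of 0.1 FPKM. With 1 library per strain and group means in bulk, no test between groups was made. Doublets were kept, and left out in an alternative. Software was pandas 2.3.3, scipy 1.17.1 and numpy 2.4.6 on Python 3.11.15, with matplotlib 3.10.9 for figures.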

Additional observations from a re-analysis of the deposited data

Results flagged for a closer look

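*Ctla2a* moved in opposite directions between clusters 2 and 3 in the 2 strains. Cluster 2 over cluster 3 was 1.09 (exact conditional 95% interval 1.04 to 1.14) in the B6129PF1/J library and 0.866 (0.828 to 0.906) in the C57BL/6J library. The difference was not tested, since each strain has 1 library.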

How the results depend on the processing

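Of the counts given for the members, those highest in cluster 2 and those 5 times over cluster 4 stayed within 1.5 times under each alternative run (mean over cells, thinning, without *Xist* and *Ddx3y* cells, the deposited averages for the former, and 3 or 10 times for the latter). The 3 members lower in C57BL/6J likewise stayed within 1.5 times. Within that band, members highest in cluster 2 went from 9 to 8 with thinning in B6129PF1/J. Members over cluster 4 in C57BL/6J went from 9 to 8 with thinning, to 7 at 10 times and to 10 at 3 times. In B6129PF1/J they went from 10 to 9 at 10 times. Without thinning, the median number of members per cell was 8 in cluster 2, 4 in cluster 3 and 1 in cluster 4 of B6129PF1/J, and 1 in cluster 4 of C57BL/6J, since cells keep more UMIs. Of the 5 genes most like the members, 2 were shared with Spearman's rho and 2 with a pseudocount of 1; the cause was not tested. With *Ihh* deletion, 2 members were lower at the more lenient other threshold and 0 at 2 times, and 1 was higher at the lenient threshold and 1 with the median log2 ratio set to 0 (*Hilpda*). With SAG, 2 were higher at the lenient threshold, and 1 with a pseudocount of 0.01 (*Fam167b*, listed at 0 with DMSO). The strain ratio of *Ctla2a* reversed to 1.07 with clusters 2 and 3 together. No paired analysis was possible because the bulk tables hold means of a group and no single libraries; leaving out replicates was not run for the same reason. UMI depth limits what can be said of cluster 4, where 0 to 16 UMIs stand behind most members, and read depth behind FPKM is unknown.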
